A study of Mus musculus with 46 samples.

Results

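The 10 immediate early genes described here were followed through 46 single cochlear cells: Fos, Fosb, Jun, Junb, Jund, Atf3, Egr1, Ier2, Ier3 and Dusp1. They were chosen by name, and all 10 were found by symbol among the 29871 genes with deposited values. Each sample is 1 fluorescent cell, taken by hand with a suction pipette from a papain-dissociated cochlea at postnatal day 10. All 46 cells share the genotype Dio2creERt2:Ai6 on the C57BL/6 strain, in which a Cre recombinase made at the Dio2 locus switches on a fluorescent reporter, so a picked cell or its ancestor is expected to have used the Dio2 promoter. GEO's labels put all cells in 1 group without saying which animals they came from, and the 46 cells were counted as 1 sample. Cells are described and compared by size of difference, and no test was made. Every cell went through dissociation and picking, so transcripts present in the living tissue and transcripts made during handling cannot be told apart.

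Immediate early genes are transcribed within minutes of a stimulus without new protein synthesis, because the factors that switch them on already sit in the cell and are activated by kinases such as ERK, JNK, p38 and RSK. Fos and Jun proteins are basic leucine zipper factors that pair to form the AP-1 transcription factor, while Egr1 is a zinc finger factor driven by SRF and ELK proteins. Enzymatic dissociation of a tissue is a known trigger of these genes, which is why their level is read as a sign of handling in single-cell data.

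The upstream DNA of 3 of the 10 genes is shown because it holds short motifs known from the control of such genes. Sequences are from RefSeq on GRCm38.p6, in which 8 of the 10 genes were matched (all but Egr1 and Ier2). Each runs 5′ to 3′ on the gene's strand from 250 bases upstream of the RefSeq start to the last base before an annotated exon. Capitals mark TGACG, the core of the cAMP response element bound by CREB and ATF factors, the full element TGACGTCA that contains it, and TATAAA, the TATA element. Fos lies at chr12:85473640-85473889 on the plus strand, Junb at chr8:84978749-84978998 on the minus strand and Dusp1 at chr17:26508520-26508722 on the minus strand.
Fos: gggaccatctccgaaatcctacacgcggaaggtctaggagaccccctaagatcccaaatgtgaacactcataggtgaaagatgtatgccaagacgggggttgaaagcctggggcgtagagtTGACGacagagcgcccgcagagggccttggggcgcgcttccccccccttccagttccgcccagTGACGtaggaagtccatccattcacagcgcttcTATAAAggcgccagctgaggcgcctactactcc
Junb: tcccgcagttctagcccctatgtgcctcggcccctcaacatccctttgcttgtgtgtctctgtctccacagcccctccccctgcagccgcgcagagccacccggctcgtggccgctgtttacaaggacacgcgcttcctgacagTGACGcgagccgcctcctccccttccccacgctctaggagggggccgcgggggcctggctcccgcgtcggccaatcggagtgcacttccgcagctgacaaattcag
Dusp1: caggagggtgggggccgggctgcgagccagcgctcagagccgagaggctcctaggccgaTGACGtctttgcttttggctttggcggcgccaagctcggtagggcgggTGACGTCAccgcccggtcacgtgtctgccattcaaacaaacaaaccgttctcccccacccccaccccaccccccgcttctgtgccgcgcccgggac
Searched on both strands in the 250 bases upstream of the start, TGACG was in 5 of the 8 member promoters (Fos, Fosb, Junb, Atf3 and Dusp1) and in 17.8% of all 32851 promoters. The full TGACGTCA, which overlaps that core, was in 1 member promoter (Dusp1) and in 1.55% of all promoters. TATAAA was in 1 member promoter (Fos) and in 12.4% of all. The AP-1 site TGANTCA and the CArG box of SRF were in 0 of the 8 windows, against 6.75% and 1.47% of all promoters. These counts describe letters in a short window and say nothing of which factor was bound. For Jund the window (chr8:70697489-70697738) lies away from the annotated start of the gene (70698949), so it may not hold the promoter. The TGACG core of Atf3, at -7, begins inside an annotated exon.

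Cells were divided by 3 marker genes. Ibsp, a bone matrix protein gene, was at or above 1000 CPM (reads per 1000000 reads) in 12 cells. Otos, the otospiralin gene of cochlear fibrocytes, was at or above 1000 CPM in 9 cells, and C1qb, a complement gene of macrophages, was at or above 500 CPM in 4 cells. No cell passed more than 1 of the gates, and 21 cells remained. The gates fell in wide gaps. The lowest Ibsp value inside was 7618 CPM and the highest outside 107 CPM. For Otos the lowest inside was 1213 CPM and the highest outside 112 CPM, and for C1qb these were 3048 and 148 CPM. Marker lists followed the gates. In Ibsp-high cells 8 of 9 osteoblast markers were at least 2 higher on the log2 scale. The same held for 7 of 8 fibrocyte markers in Otos-high cells, and for the 3 macrophage markers that passed the filter in C1qb-high cells. Each of these counts includes the gate gene itself (Ibsp 9.98, Otos 8.84 and C1qb 10.93), whose difference was fixed by the gating. Summed macrophage markers reached 14731 to 26406 CPM in C1qb-high cells, against 2.63 to 162 CPM in Ibsp-high, 2.02 to 52.4 CPM in Otos-high and 0.682 to 249 CPM in the remaining cells. Sums of the glial list were high in Otos-high cells, with a median of 9933 CPM, through S100b at a median of 9379 CPM, while Sox10 had a median of 0 CPM there. Dio2 itself, on the log2(CPM + 1) scale, was 0.26 to 0.55 in the 4 C1qb-high cells, 0.26 to 9.09 in Ibsp-high, 0 to 9.23 in Otos-high and 0.19 to 7.77 in the remaining cells, so each class held cells with less than 1 CPM of Dio2 transcript.

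Cells held 2522853 to 10350249 reads in listed genes, 3351 to 7143 genes at 1 CPM or more, and a mitochondrial share of 0.456% to 2.98%. The values of the 10 genes were split into a high and a low range. Values below 10 CPM had a median of 0.131% to 0.282% of the gene's mean over all cells, and the 3 gate genes outside their gates had medians of 0.181% to 0.686% of their means. Such values are therefore not read as expression. A gene is called high in a cell at 100 CPM or more. Shares of cells carry exact Clopper-Pearson 95% intervals, which take the cells as independent draws and cover counting error only. The cells make 1 sample, so the intervals do not measure spread between animals. Reads without molecular identifiers are not separate molecules.

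Junb and Jund were the most widespread of the 10, and Fosb and Atf3 the rarest. Junb was high in 40 of 46 cells (87.0%, interval 73.7% to 95.1%), Jund in 39, Ier2 in 33, Egr1 in 31, Dusp1 in 29, Fos in 24 (52.2%, interval 36.9% to 67.1%), Jun in 21, Ier3 in 20, Atf3 in 8 and Fosb in 7 (15.2%, interval 6.34% to 28.9%). Compared per length of exon, so that genes can be set against each other, the median level was 262 CPM per kb for Jund, 241 for Egr1, 224 for Junb and 213 for Ier2. It was 83.8 for Dusp1, 77.1 for Fos, 49.7 for Ier3, 22.1 for Jun, 0.247 for Atf3 and 0.0292 for Fosb. By the mean over cells the order differed, with Fos first at 793 CPM per kb, then Junb at 662, Egr1 at 562 and Ier2 at 477. Fos thus had the largest mean beside a moderate median, because it was very high in some cells and at the low range in 20 others.

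**Figure D1:**
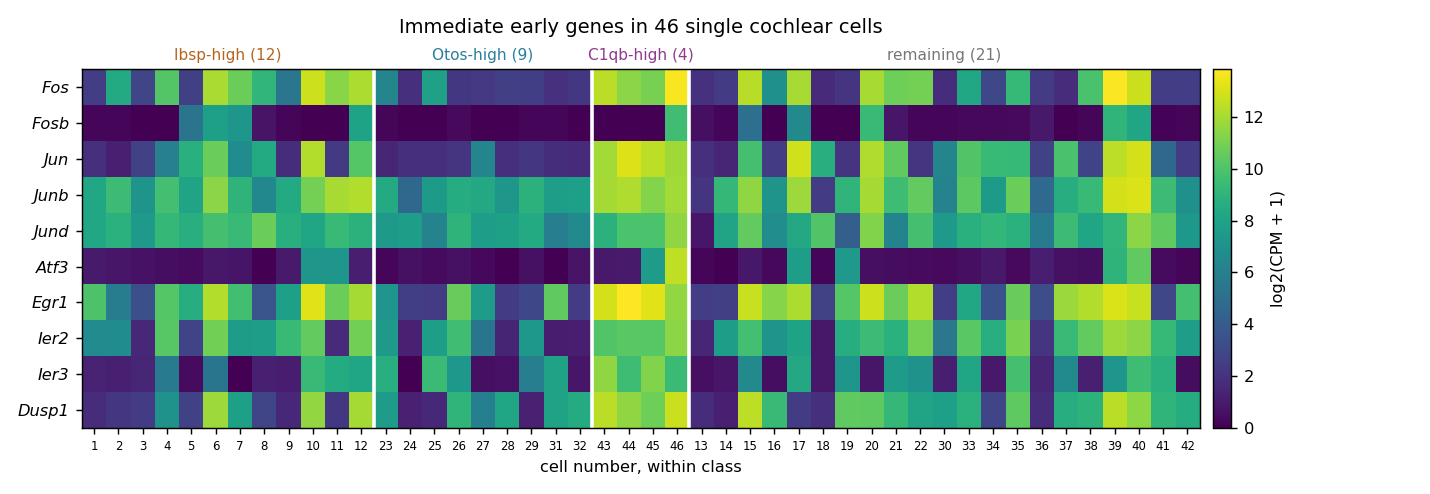
Level of the 10 immediate early genes in each of the 46 cells, as log2(CPM + 1) by colour, with cells ordered by number inside their class (number of cells in brackets). Yellow columns are cells 39, 40 and 46, in which all 10 genes were high; cells 13 and 36 had none.

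Fos, the inducible partner of Jun proteins in AP-1, was 2045 to 13152 CPM in C1qb-high cells (5469, 2776, 2045 and 13152 in cells 43 to 46). It was 4.75 to 7029 CPM with a median of 849 in Ibsp-high cells, 2.78 to 243 CPM with a median of 3.84 in Otos-high cells, and 2.22 to 13727 CPM with a median of 120 in the remaining cells. Fos was high in all 4 C1qb-high, 8 of 12 Ibsp-high, 1 of 9 Otos-high and 11 of 21 remaining cells. In Otos-high cells 7 of 9 were below 10 CPM, with cell 23 at 79.0 CPM and cell 25 at 243 CPM. The Ibsp-high and remaining cells held both low and very high values and overlapped with the C1qb-high cells, none of which was low.

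Fosb, the paralogue of Fos, was at or above 100 CPM in 7 cells: cells 6, 7 and 12 (Ibsp-high, 226, 155 and 255 CPM), cell 46 (C1qb-high, 781 CPM) and cells 20, 39 and 40 (remaining, 630, 532 and 284 CPM). It was 0 to 0.262 CPM in the 9 Otos-high cells. All 7 of these cells also had Fos, Jun, Junb, Jund, Egr1, Ier2 and Dusp1 high, and no cell had Fosb high without them. Over all 46 cells those genes were high in 21 (Jun) to 40 (Junb) cells. Of the 24 cells with Fos high, 17 had no high Fosb.

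Jun, the principal AP-1 partner of Fos, averaged 12.33 in C1qb-high and 2.37 in Otos-high cells on the log2(CPM + 1) scale. It was 3924, 8668, 5567 and 3659 CPM in the 4 C1qb-high cells and 1.82 to 77.4 CPM in the 9 Otos-high cells, so these classes did not overlap. It was 1.37 to 4826 CPM with a median of 85.4 in Ibsp-high cells and 1.76 to 7893 CPM with a median of 404 in the remaining cells, with 6 of 12 and 11 of 21 high. The C1qb-high cells overlapped with the remaining cells, whose cells 17, 20, 39 and 40 had 7437, 4620, 5655 and 7893 CPM.

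Junb, which forms AP-1 with weaker transactivation than Jun, was high in 40 of 46 cells, the most of the 10 genes as counted. It was 3995, 4651, 2447 and 3880 CPM in the C1qb-high cells, 87.1 to 4856 CPM with a median of 613 in Ibsp-high cells, 24.9 to 473 CPM with a median of 219 in Otos-high cells, and 3.23 to 8696 CPM with a median of 673 in the remaining cells. Otos-high cells were low as a set but 8 of 9 were still above 100 CPM. Jund, the member expressed in unstimulated cells of most tissues, was 482, 958, 950 and 2974 CPM in the C1qb-high cells, 173 to 1723 CPM with a median of 459 in Ibsp-high cells, 59.7 to 507 CPM with a median of 215 in Otos-high cells and 0.808 to 2741 CPM with a median of 444 in the remaining cells. It varied least among the 10 genes, with a standard deviation (SD) over all cells of 1.93 on the log2(CPM + 1) scale, against 4.46 for Fos.

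Jund (chr8:70698949-70700616, plus strand) overlaps Gm11175, an antisense gene, over 877 exon bases. The levels of Gm11175 moved with Jund almost exactly (Spearman rho 0.997 over 46 cells), at 0.683 to 0.826 of the Jund level in the 39 cells with Jund high, so the reads of these genes cannot be told apart without strand. The other overlaps were small: Junos shares 232 exon bases with Jun (chr4:95049034-95052222, minus strand), Prdx2 173 with Junb (chr8:84974484-84978718, minus strand) and Ergic1 11 with Dusp1 (chr17:26505590-26562128, minus strand). Junos was at most 26.7 CPM, and the rho of Prdx2 with Junb was -0.08. Summed with Gm11175, Jund was at or above 100 CPM in 43 cells, and Junb summed with Prdx2 in 42. Which of Jund and Junb was high in more cells is thus uncertain. Fos (chr12:85473890-85477273, plus strand), Fosb (chr7:19302696-19310051, minus strand), Ier2 (chr8:84661331-84662852, minus strand) and Ier3 (chr17:35821684-35822923, plus strand) overlap no other annotated gene. Ier2 and Junb lie 312 kb apart on chromosome 8.

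Atf3, a stress-induced repressor that can pair with Jun proteins, was at the low range in 38 of 46 cells and high in 8. Cell 46, a C1qb-high cell, had 5869 CPM, and cell 40 of the remaining cells had 1395 CPM. The other C1qb-high cells had 0.931, 0.969 and 202 CPM, so the class did not move together in this gene. Atf3 was high in 2 of 12 Ibsp-high, 0 of 9 Otos-high and 4 of 21 remaining cells. All 8 cells with high Atf3 had high Junb, Egr1 and Ier3, which were high in 40, 31 and 20 of all 46 cells.

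Egr1, the zinc finger factor, had the highest single value of the 10 genes, 14617 CPM in cell 44. It was 7803, 14617, 9367 and 3075 CPM in the C1qb-high cells, 9.57 to 9334 CPM with a median of 894 in Ibsp-high cells, 4.27 to 1562 CPM with a median of 7.04 in Otos-high cells and 4.69 to 8439 CPM with a median of 1599 in the remaining cells. In Otos-high cells it was split, with cells 26 and 31 at 1562 and 1424 CPM, cells 23 and 27 at 148 and 198 CPM, and 5 cells below 10 CPM. Egr1 was never high without Junb, in 31 of 31 cells, while Junb was high in 40 of all 46 cells.

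Ier2, a nuclear protein gene induced by growth factors, was 1071, 1263, 1229 and 2714 CPM in the C1qb-high cells. It was 1.99 to 1887 CPM with a median of 197 in Ibsp-high cells, 1.10 to 760 CPM with a median of 39.8 in Otos-high cells and 0.852 to 3542 CPM with a median of 457 in the remaining cells. It was high in 17 of the 21 remaining cells, as many as Junb and Jund. Ier3, which protects cells from death signals and is a target of NF-kB, was 2989, 739, 2411 and 692 CPM in the C1qb-high cells and at most 628 CPM in Ibsp-high, 690 CPM in Otos-high and 851 CPM in the remaining cells. Its medians there were 1.69, 58.5 and 93.4 CPM. Ier3 was high in 4 of 9 Otos-high cells, against 3 of 12 Ibsp-high cells.

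Dusp1, the phosphatase that switches off MAP kinases after stress, was 5324, 2960, 1767 and 6872 CPM in the C1qb-high cells. It was 1.94 to 4088 CPM with a median of 6.00 in Ibsp-high cells, 1.39 to 526 CPM with a median of 203 in Otos-high cells and 1.28 to 5586 CPM with a median of 460 in the remaining cells. Ibsp-high cells held 3 cells with very high Dusp1 (cells 6, 10 and 12 at 3563, 3106 and 4088 CPM), 2 with moderate Dusp1 (cells 4 and 7 at 135 and 232 CPM) and 7 below 10 CPM. Dusp1 was thus low in the larger part of the Ibsp-high cells, some of which, such as cell 11 with Fos at 2662 CPM and Junb at 4141 CPM, had other members very high.

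**Figure D2:**
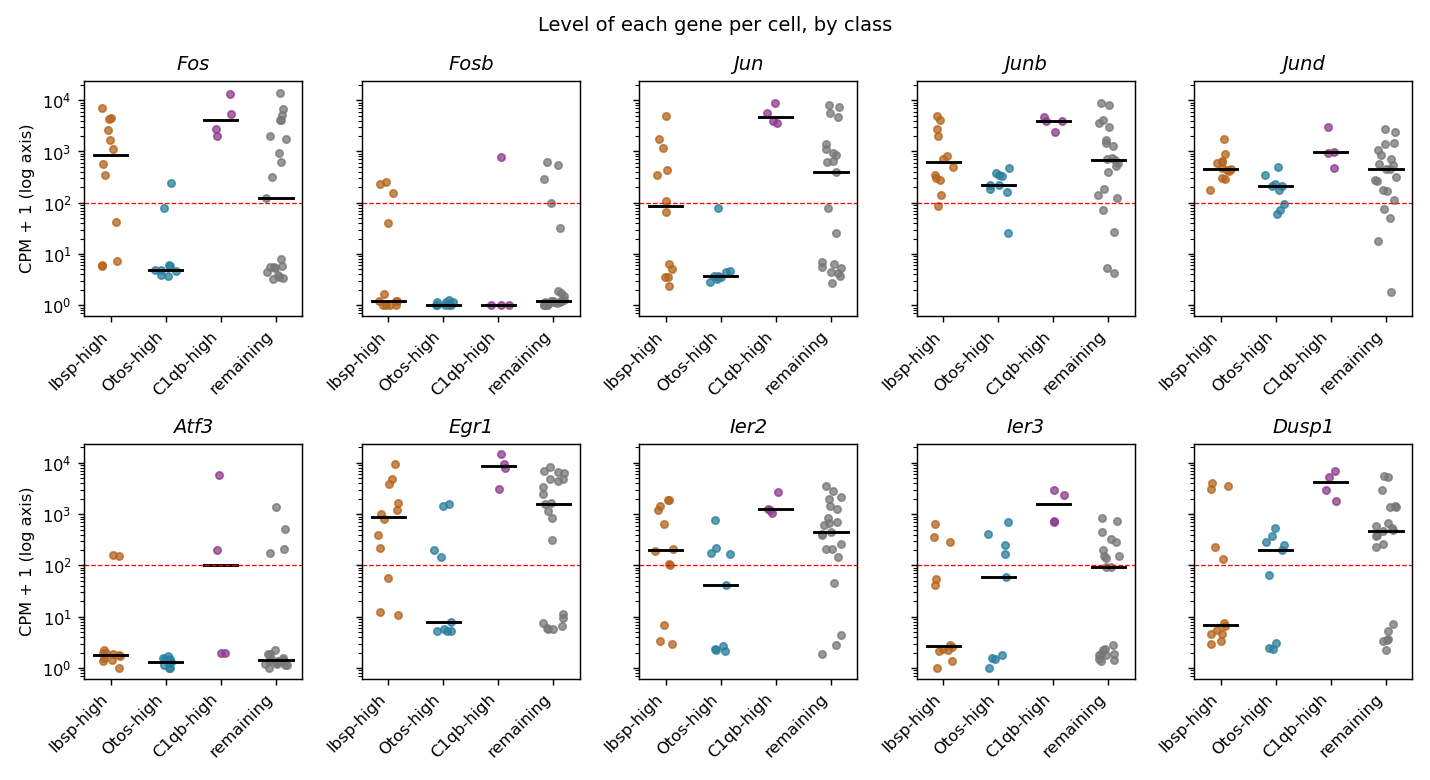
Level of each gene in each cell as CPM + 1 on a log axis, by class; points are cells, black bars are class medians and the red dashed line is at 100 CPM. All 4 C1qb-high cells lie above the line for 8 of the 10 genes, while Fos and Jun are near the low range in the Otos-high cells.

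The 10 genes tended to be high in the same cells. The number of the 10 at or above 100 CPM was 0 in cells 13 and 36, 1 in cell 24, and 10 in cells 39, 40 and 46, with a median of 6. At least 8 were high in 14 cells, which were 4 of 4 C1qb-high, 4 of 12 Ibsp-high, 0 of 9 Otos-high and 6 of 21 remaining cells. The summed level of the 10 genes was 19.7 CPM in cell 13, and 46355 CPM in cell 39, which is 4.64% of that cell's reads. The remaining cells thus held both the lowest and the highest summed level of the panel.

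Across the 45 pairs of the 10 genes, Spearman's rho over 46 cells had a median of 0.53 and ran from -0.01 to 0.81. Of the pairs, 25 (55.6%) were at 0.5 or above, while the same held for 0.0937% of the 38180691 pairs among the 8739 genes at 1 CPM or more in at least 20% of cells, whose median was 0.01. The cells share 1 panel and a compositional scale, and these values are a description with no test. Fos with Junb was the most alike pair (0.81, both high in 23 cells), followed by Junb with Egr1 (0.78, 31 cells) and Junb with Ier2 (0.77, 32 cells). Against the mean of the other 9, Junb had a rho of 0.86, Egr1 0.83, Ier2 0.81, Fos 0.77, Dusp1 0.71, Jun 0.69, Jund 0.54, Ier3 0.54, Atf3 0.49 and Fosb 0.31. The likeness held inside classes to different degrees: the median pair rho was 0.42 in the 12 Ibsp-high cells, 0.18 in the 9 Otos-high cells and 0.56 in the 21 remaining cells. All these rho values also rank values under 10 CPM, which are not read as expression. Fosb was under 10 CPM in 36 and Atf3 in 38 of the 46 cells. In the Otos-high cells Fosb and Atf3 were so in 9 of 9, Jun in 8 and Fos in 7, so ranks there are largely of low values. Without the 4 C1qb-high cells, an alternative chosen after the data were seen, the median over pairs was 0.48.

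**Figure D3:**
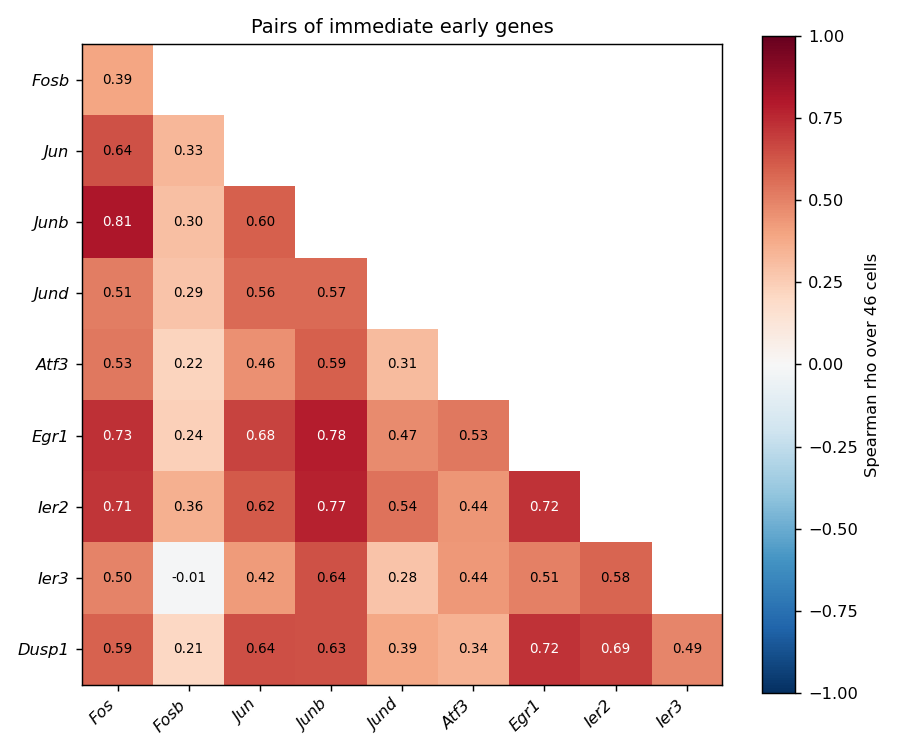
Spearman's rho for each of the 45 pairs of genes over the 46 cells, from -1 (blue) to 1 (red). Fos, Junb, Egr1 and Ier2 form the reddest block (0.71 to 0.81), and Fosb is palest.

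The AP-1 partners were not always high together. All 24 cells with Fos or Fosb high also had a Jun-family gene high. A Jun-family gene was high in 44 of the 46 cells, however, so that overlap was largely set by this share. Jun, Junb or Jund was high with neither Fos nor Fosb in 20 cells, 8 of them Otos-high. Fos and Jun were both high in 17 cells, and Jun was high without a Fos-family gene in 4. All 3 Jun-family genes were high in 18 cells, among them all 4 C1qb-high cells and 0 of the Otos-high cells.

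Set out as the joint level, the mean log2(CPM + 1) of the 10 genes, the classes ran from high to low as C1qb-high (10.00 ± 1.11, SD, 4 cells), remaining (6.36 ± 2.73, 21 cells), Ibsp-high (6.25 ± 2.27, 12 cells) and Otos-high (4.18 ± 1.17, 9 cells). The difference from all other cells was 4.14 for C1qb-high cells (pooled SD 2.40) and -2.53 for Otos-high cells (pooled SD 2.47), both larger than the spread over cells. It was 0.04 for Ibsp-high cells (pooled SD 2.68) and 0.26 for the remaining cells (pooled SD 2.67), both far within it. Ibsp-high minus Otos-high cells gave 2.06 (pooled SD 1.89), Otos-high minus remaining cells -2.18 (pooled SD 2.39) and Ibsp-high minus remaining cells -0.11 (pooled SD 2.57), so only the first of these exceeded the spread over cells. Every one of these comparisons shares cells with the others, and no gene was free of overlap between a class and all the other cells.

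Gene by gene, a difference of at least 2 in mean log2(CPM + 1) is called here. In C1qb-high cells 8 of the 10 genes were called higher and 0 lower than in other cells, where 12.7% of all 8739 genes were higher and 18.6% lower. These were Jun by 6.58, Ier3 by 6.12, Fos by 5.67, Dusp1 by 5.30, Egr1 by 4.88, Atf3 by 3.91, Ier2 by 3.38 and Junb by 3.07. Of these, all but Ier2 (pooled SD 3.39) exceeded the spread over cells. Jund (1.82) and Fosb (0.65) were not called. Jund passed the limit without cell 43 (2.20), and Fosb was -1.75 without cell 46. The median over the 10 was 4.39, against -0.47 over all genes. Atf3 rests on cell 46, and its difference without that cell was 1.57. The call of each other of these genes held when any 1 cell was left out. With median-of-ratios size factors the median over all genes was 0.04, the background was 18.4% higher and 12.6% lower, and 9 of the 10 genes were called higher.

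In Otos-high cells 5 of the 10 genes were called lower and 0 higher than in other cells, where 5.38% of all genes were lower and 6.6% higher. The lower genes were Jun (-4.90), Fos (-4.50), Egr1 (-3.75), Ier2 (-3.37) and Fosb (-2.11). Of these, Egr1 (pooled SD 3.85) and Fosb (3.10) were within the spread over cells. Ier3 (-0.30), Jund (-1.20), Dusp1 (-1.61), Junb (-1.64) and Atf3 (-1.96) were not called. Atf3 passed the limit without any 1 of 20 cells, and Dusp1 without cell 26 (-2.03). The median over the 10 was -2.03, and -0.06 over all genes. The Fosb call was lost without any 1 of 8 other cells, to -1.90 without cell 46. Set against the remaining cells only, 4 were called lower (Jun -4.62, Ier2 -3.41, Fos -3.39 and Egr1 -3.18). Fos (pooled SD 4.09) and Egr1 (4.11) were within the spread over cells in this comparison. Among all genes 5.29% were lower and 6.59% higher.

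In Ibsp-high cells 1 of the 10 genes was called against other cells, Dusp1 (-2.05), which was lower, with 5.1% of all genes lower and 7.05% higher. That share is near the background, the call was lost without any 1 of 19 cells, and the pooled SD was 3.96. The other 9 differences ran from -1.60 (Ier3) to 1.89 (Fos). Fos passed the limit without any 1 of 15 cells, and Ier3 without any 1 of 3. Ibsp-high cells were higher than Otos-high cells in 5 of the 10 genes (Fos 5.01, Jun 3.72, Egr1 3.52, Ier2 2.50 and Fosb 2.38). Ier2 (pooled SD 3.48) and Fosb (2.64) were within the spread over cells there. Among all genes 11.5% were higher and 9.86% lower. The Fosb call was lost without cell 6, 7 or 12, with the lowest value at 1.88. Against the remaining cells 1 of the 10 was called, Dusp1 (-2.01, pooled SD 3.98), lower in Ibsp-high cells. Among all genes 5.77% were lower and 7.09% higher. This call of Dusp1 ended with size factors or without any 1 of 22 cells. For the remaining cells, none of the 10 genes was called against the other cells, with 3.18% of all genes higher and 2.43% lower.

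The joint level was highest at the end of the cell numbering. Cell numbers come from the sample titles, and what set them is not given. Ibsp-high cells were exactly cells 1 to 12, Otos-high cells lay between 23 and 32, and C1qb-high cells were 43 to 46, so cell number and class cannot be told apart. The median joint level was 5.82 in cells 1 to 12, 5.83 in cells 13 to 24, 4.48 in cells 25 to 36 and 9.29 in cells 37 to 46. Spearman's rho with cell number was 0.24 over the 46 cells and 0.03 without the 4 C1qb-high cells, an alternative chosen after the data were seen.

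Within classes the order showed in the Ibsp-high cells. Their rho with cell number was 0.66 over 12 cells, and 0.57 to 0.74 when each cell was left out, a further alternative added after the data were seen. The joint level was 2.98 to 6.89 in cells 1 to 5 and 4.54 to 9.60 in cells 6 to 12, with the 3 highest in cells 6, 10 and 12. Fos had the largest rho among the 10 genes in this class (0.71). The rho was -0.27 in the 9 Otos-high cells and 0.21 in the 21 remaining cells, whose cells 13 to 22 and 33 to 42 had medians of 6.69 and 6.52.

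**Figure D4:**
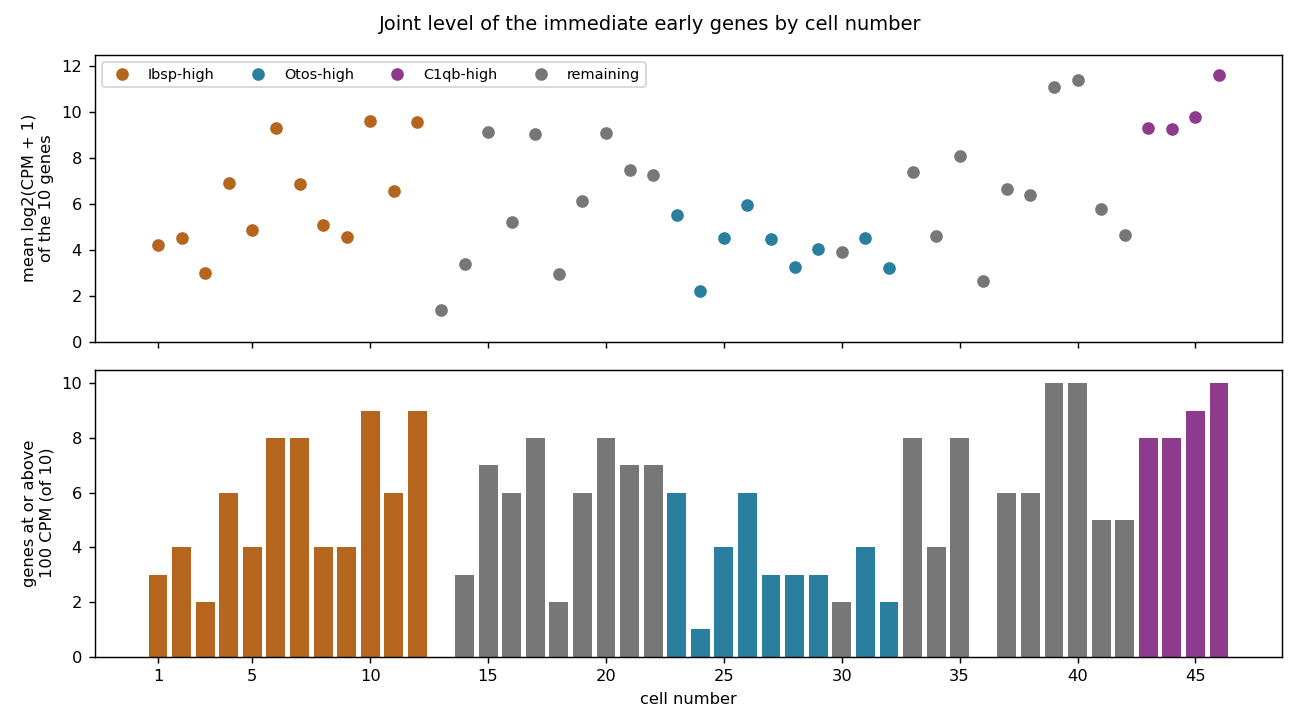
Joint level (mean log2(CPM + 1) of the 10 genes, above) and number of the 10 genes at or above 100 CPM (below) for each cell by its number, coloured by class. Cells 23 to 32 sit low, at 2.19 to 5.94 in the joint level, and cells 39, 40 and 46 have the 3 highest joint levels and all 10 genes high.

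Depth and RNA quality are given beside the joint level. Over 46 cells its rho was -0.16 with reads, 0.18 with genes detected, -0.24 with the mitochondrial share and 0.06 with the level of 10 widely used genes. It was -0.11 with Dio2. The heat shock genes, another sign of cell stress, had a rho of -0.01 with it. Of 15 heat shock genes 14 passed the filter, and in Otos-high cells 0 were called higher and 3 lower (Dnajb1 -3.29, Hspa1b -3.06 and Hspa1a -2.43), with a median of 0.02. Among all genes 6.6% were higher and 5.38% lower in Otos-high cells. Hspa1a and Hspa1b are near-identical copies whose split of reads is uncertain. In C1qb-high cells 2 heat shock genes were called higher and 4 lower, with a median of -0.30. These counts are near the shares of all genes in that class, 12.7% higher and 18.6% lower. Of 11 oxidative stress and p53 target genes, all of which passed the filter, Ibsp-high cells were called higher in Cdkn1a (4.96), the cell cycle inhibitor p21, and Mdm2 (2.04), and lower in 0. Among all genes 7.05% were higher and 5.1% lower in Ibsp-high cells. Cdkn1a was high in all 12 Ibsp-high cells, and its rho with the joint level was 0.05.

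Part of a list of other immediate early genes moved with the 10. Of 34 listed genes 23 passed the filter, and 5 (21.7%) had a rho of at least 0.5 with the joint level. The list median was 0.31. Among all 8729 tested genes but the members, these 5 included, 20 (0.229%) reached 0.5, and the median was 0.01. The mean of the list had a rho of 0.77 with the joint level over 46 cells, and 0.71, 0.05 and 0.73 in Ibsp-high, Otos-high and remaining cells. In Otos-high cells 10 of the 23 were called lower and 0 higher than in other cells (Ier5 -4.71, Klf6 -4.55, Plk2 -4.06 and Nr4a1 -2.86), with a list median of -1.86. The shares over all genes were 5.38% lower and 6.6% higher. Ier5 and Nr4a1 had medians of 0.279 and 0.271 CPM in Otos-high cells, against 811 and 530 CPM in C1qb-high cells.

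In C1qb-high cells 12 of the 23 were called higher and 5 lower than in other cells, with a list median of 2.39. The shares over all genes were 12.7% higher and 18.6% lower. Nr4a1, an orphan nuclear receptor, was higher by 6.23, Ier5 by 6.02, Zfp36, which destabilises inflammatory mRNAs, by 5.94, and Egr2 by 5.25. The 5 lower genes of the list were Ctgf (-5.10), Gadd45g (-4.14), Cyr61 (-4.11), Gadd45a (-3.49) and Myc (-2.59). Ctgf and Cyr61 encode secreted matricellular proteins of connective tissue and were high in 28 and 37 of the 46 cells. In Ibsp-high cells 4 were called higher and 1 lower than in other cells (Klf4 3.42, Myc 2.65, Klf2 2.45, Klf10 2.16 and Sgk1 -3.57), with a median of 0.25. In the remaining cells 2 were called higher and 0 lower (Ctgf 2.74 and Gadd45a 2.24), with a median of 0.58. Among all genes 7.05% were higher and 5.1% lower in Ibsp-high cells, and 3.18% and 2.43% in the remaining cells.

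**Figure D5:**
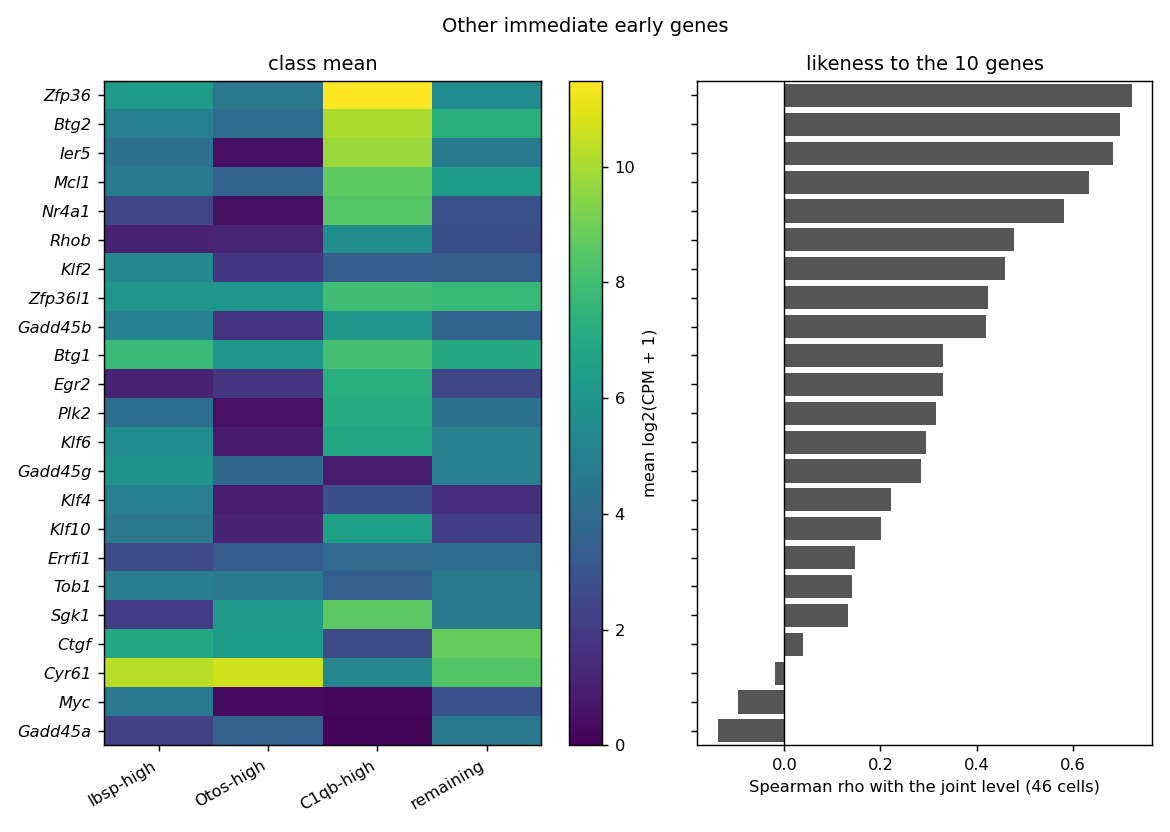
Left, mean log2(CPM + 1) of 23 further immediate early genes in each class; right, their Spearman rho with the joint level of the 10 genes over 46 cells. Zfp36, Btg2, Ier5, Mcl1 and Nr4a1 lie at 0.58 or more, and Myc and Gadd45a lie below 0.

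Feedback regulators of the same pathways were examined in the same way. Of 11 MAP kinase feedback genes 3 passed the filter, and in C1qb-high cells 2 were called higher than in other cells, Dusp6, an ERK phosphatase, by 7.11 and Spred1, a RAS inhibitor, by 4.41. In Otos-high cells both were called lower than in other cells, which include the C1qb-high cells (Dusp6 -2.05 and Spred1 -3.26). Against the remaining cells only, Spred1 was called lower (-2.85) and Dusp6 was not, with means of 0.29 and 1.15 in log2(CPM + 1). Of 12 NF-kB genes 6 passed, and C1qb-high cells were called higher in Nfkbiz (7.69), Nfkbia (4.59), whose product holds NF-kB in the cytoplasm, and Nfkb1 (2.05), and lower in Rela (-3.45). In Otos-high cells 0 were called higher and 3 lower (Nfkbia -2.70, Icam1 -2.25 and Nfkbiz -2.08). Against the remaining cells only, Icam1 (-3.18) and Nfkbia (-2.37) were called lower and Nfkbiz was not. Of 10 integrated stress and endoplasmic reticulum genes, 2 were called higher in C1qb-high cells, Ppp1r15a by 5.34 and Dnajb9 by 4.18, and 3 were called lower in Otos-high cells (Ddit3 -2.99, Dnajb9 -2.88 and Ppp1r15a -2.32). For all these lists, the shares over all genes were 12.7% higher and 18.6% lower in C1qb-high cells. In Otos-high cells they were 6.6% higher and 5.38% lower, or 6.59% and 5.29% against the remaining cells only.

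The kinases and factors upstream of the response were compared with the joint level as well. Of 18 listed genes 16 passed the filter, 0 had a rho of 0.5 or more, and the list median was 0.08. In Otos-high cells 0 of the 16 were called in either direction. In C1qb-high cells 5 were called higher and 3 lower, among them Rps6ka1 (5.40) and Elk3 (4.92) above and Srf (-2.14) below. Among all genes 12.7% were higher and 18.6% lower in C1qb-high cells, so the count of lower kinases and factors is near that share. Of 12 further AP-1 and partner genes 6 passed, 0 had a rho of 0.5 or more, and Fosl1 and Fosl2 reached 87.8 and 10.9 CPM at most.

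Among the genes whose level was most like the joint level over 46 cells, of 7765 compared, were Zfp36 (rho 0.72), Btg2 (0.70), Ier5 (0.68), Mcl1 (0.63), Map3k1 (0.62), Ppp1r10 (0.61), Klf7 (0.60), Nr4a1 (0.58) and Stk40 (0.53). Of these, Zfp36, Btg2, Ier5, Mcl1 and Nr4a1 are on the list of other immediate early genes. Within the remaining cells alone these 5 had rho values of 0.68, 0.70, 0.57, 0.69 and 0.58. Map3k1 rests on low values and was at or above 100 CPM in 1 cell. Klf7, Stk40, Nr4a1 and Ier5 had medians of 0.200, 0.254, 0.604 and 1.31 CPM. They were high in 4, 7, 9 and 21 cells, so many of their ranks are also of values under 10 CPM. The lowest rho values were those of Prn (-0.71), Prnp (-0.67), Bsg (-0.65), Sparc (-0.62) and Amd2 (-0.61). Prn was at most 15.2 CPM with a median of 0.802 CPM, so its ranks are largely of low values. How far its reads are separate from those of Prnp, the prion protein gene, was not examined. Prnp and Sparc, a collagen-binding matrix protein gene, had medians of 1136 and 52366 CPM in Otos-high cells and 1.63 and 191 CPM in C1qb-high cells, so they are also genes in which the classes stand apart.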

How the data were processed

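Gene expression was measured in 46 single cells with SMART-Seq v4 and ThruPLEX, per the labels' protocols. STAR 2.7.3a and bcl2fastq 2, with the builds GRCm38 and mm10, are named in the submitters' processing notes. How reads were counted per gene, with which annotation and whether by strand, is not given in the sources used here. Values are CPM as deposited by the authors. Dividing each cell's values by the worth of 1 read gave whole reads for 100% of the values above 0, to within 0.01 read. No count test could be run on them, because the 46 cells make 1 sample with no second one. Levels were computed from the CPM with python 3.11.15, numpy 2.4.6, pandas 2.3.3 and scipy 1.17.1, after adding 1 and taking log2, which makes differences between low values look smaller than they are. Genes at 1 CPM or more in at least 20% of cells entered, which left 8739, all 10 members among them. A difference of at least 2 was called. The scripts were tested on simulated data. Gene positions and exon lengths are from the GENCODE annotation of GRCm38.

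The members and all lists were chosen with earlier results of these data known. Named genes were the 10 members, the 10 genes most and the 5 least like the joint level, and up to 4 genes of each list by difference, plus called genes named to complete a count. The values of 3 listed genes are not reported here; list counts include them. Alternatives were other thresholds, pseudocounts, scalings, filters and gates, thinned reads, medians in place of means, and cells or members left out.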

Additional observations from a re-analysis of the deposited data

How the results depend on the processing

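No called class difference changed sign under the alternatives, but 27 values from differences that were not called did, all with a size of 0.68 or less as reported. The joint level of Ibsp-high minus other cells, 0.04, was -0.05 with a pseudocount of 10, -0.02 with size factors and -0.03 with medians. With medians Egr1 and Jun were -0.54 and 0.92 in Ibsp-high minus other cells, Ier3 was 0.11 in Otos-high minus other cells and Fosb was -0.25 in C1qb-high minus other cells. The counts of genes called depended on the limits. Among the 10 members, the count called against other cells for Ibsp-high cells was 0 with a pseudocount of 10 or gates 10 times lower, and 3 at a difference of 1 or with medians; for Otos-high cells it was 9 at a difference of 1; for the remaining cells it was 2 at a difference of 1, and 1 with lower gates or medians. Between Ibsp-high and Otos-high cells it was 3 with a pseudocount of 10 and 8 at a difference of 1. Between Ibsp-high and remaining cells it was 0 with a pseudocount of 10, size factors or lower gates, 2 at a difference of 1 and 4 with medians; between Otos-high and remaining cells it was 8 at a difference of 1. Of the other immediate early genes, those called for Ibsp-high cells were 10 with a pseudocount of 0.1, 2 with a pseudocount of 10, 16 at a difference of 1 and 14 with medians. For Otos-high cells they were 4 with a pseudocount of 10 and 19 at a difference of 1, and for the remaining cells 1, 9 and, with medians, 10. Between Ibsp-high and remaining cells they were 1, 15 and 12, and between Otos-high and remaining cells 5 with a pseudocount of 10 and 17 at a difference of 1. At 300 CPM, 8 cells had at least 8 members high, and Fosb was high in 3 cells, Atf3 in 3 and Ier3 in 12. Without the 4 C1qb-high cells, the rho of the joint level with cell number was 0.0331. The cause of these moves was not tested, beyond the changed limits themselves.

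The joint level in Otos-high minus other cells was -2.76 to -2.29, and in C1qb-high minus other cells 3.59 to 4.38, when each cell of the class was left out. No paired analysis was possible because the cells form 1 group and no test was made. The main limits are that cells are not replicates, that no undissociated cell was measured, that 4 cells carry the C1qb-high result, and that values under 10 CPM are not read as expression.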
